A study of Mus musculus with 15 samples.

Results

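The retinoblastoma (Rb) and E2f genes were followed in mouse embryonic fibroblasts (MEFs) cultured with or without an adipogenic medium. The members were given by name, with no threshold on measured values: the 3 pocket protein genes Rb1, Rbl1 and Rbl2 and the 7 E2f genes E2f1, E2f2, E2f3, E2f4, E2f5, E2f7 and E2f8. These are 10 of the 46603 gene identifiers in the files, and all 10 were among the 15997 genes with enough counts to be tested. The MEFs were wild-type cells of BALB/c mice from 10.5 day embryos, and RNA-Seq was done on 15 samples, 3 in each of 5 conditions. The study's introduction describes MEFs as isolated from older embryos of another strain, and its methods name neither age nor strain.

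MEFD0 was harvested at day 0, before any treatment. MEFD3plu and MEFD5plu were the treated cells of days 3 and 5, and MEFD3min and MEFD5min were the untreated cells of the same days. Treatment began at confluency and consisted of 0.5 mM IBMX, a phosphodiesterase inhibitor, 10 µg/mL insulin, 1 µM dexamethasone, a glucocorticoid, and 10 µM rosiglitazone, a Pparg agonist, in growth medium with serum. The mixture was taken off at day 3, so MEFD5plu cells had been back in growth medium since then. The labels do not say how many embryos or cultures gave the samples, so the p-values measure the spread between these samples, which may be technical. Total counts ran from 24030558 to 37281126 per sample. MEFs are a mixed primary population: all 7 adipocyte markers were called higher in treated cells on both days, with summed levels of 7441 to 9166 CPM in MEFD3plu and 9670.1 to 11428 CPM in MEFD5plu against 42.2 to 65.2 CPM in the other conditions. The 10 fibroblast markers were expressed throughout, at 10543 to 36326 CPM in sum, highest in MEFD3min. Macrophage, endothelial, epithelial and erythroid markers stayed at 15.1 CPM or less in sum in every sample. The macrophage genes Adgre1, C1qa and C1qb had 0 counts in all samples. Of the 8 macrophage markers, 4 had enough counts to be tested. In treated cells 2 of these were called lower and none higher on each day, where 28.0% and 24.2% of all genes tested were lower. CPM express a gene's counts relative to the library's total, here scaled by the TMM factors of edgeR. The 4 smooth muscle markers also differed between conditions, at 478 to 554 CPM in sum in MEFD0, 119 to 171 in MEFD3min, 18.2 to 24.2 in MEFD3plu, 719 to 819.6 in MEFD5min and 192 to 201 in MEFD5plu. The 4 neural markers lay between 7.56 and 44.6 CPM, with Sox10 at 0 counts. The part of these cell type differences in the results on the Rb and E2f genes was not tested.

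Rb1 and its relatives Rbl1 (p107) and Rbl2 (p130) are called pocket proteins because a shared pocket holds E2F transcription factors and, with them, chromatin enzymes that silence E2F target genes. Cyclin-dependent kinases phosphorylate the pocket proteins in G1, the E2Fs are set free, and the genes for DNA replication are switched on. E2f1, E2f2 and E2f3 are the activators, E2f4 and E2f5 act mainly as repressors together with Rbl1 and Rbl2, and E2f7 and E2f8 are atypical members that repress without a pocket protein or a dimer partner. In quiescent cells Rbl2 and E2f4 form the DREAM complex with the MuvB proteins, and in cultured preadipocytes that are given hormones an exchange of Rbl2 for Rbl1 accompanies the divisions that come before fat storage.

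Several of these genes are themselves known E2F targets, so promoters are shown for the members with E2F-type letters in the stretch printed. Rbl2, whose level varied least, is shown beside them. The sequences are from RefSeq (GRCm38.p6) and run 5′ to 3′ on the gene's own strand, from 250 bases before the transcript start to 30 after it. Capitals mark the letters TTCCCGC and their variants TTCGCGC, the form TTGCCGC and the form TTGGCGC, on either strand.
Rbl1 promoter, chr2:157204505-157204784 (- strand): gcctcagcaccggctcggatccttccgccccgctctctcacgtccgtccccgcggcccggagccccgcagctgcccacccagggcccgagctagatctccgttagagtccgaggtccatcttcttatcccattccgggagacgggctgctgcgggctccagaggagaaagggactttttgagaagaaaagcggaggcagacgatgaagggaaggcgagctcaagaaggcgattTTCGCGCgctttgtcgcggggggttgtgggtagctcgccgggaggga
E2f3 promoter, chr13:29986034-29986313 (- strand): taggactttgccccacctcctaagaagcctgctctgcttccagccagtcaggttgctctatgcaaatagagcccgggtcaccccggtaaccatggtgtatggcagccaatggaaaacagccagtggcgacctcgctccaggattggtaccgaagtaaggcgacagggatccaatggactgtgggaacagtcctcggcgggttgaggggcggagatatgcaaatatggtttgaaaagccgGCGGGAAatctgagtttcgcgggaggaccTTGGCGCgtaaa
E2f7 promoter, chr10:110745189-110745468 (+ strand): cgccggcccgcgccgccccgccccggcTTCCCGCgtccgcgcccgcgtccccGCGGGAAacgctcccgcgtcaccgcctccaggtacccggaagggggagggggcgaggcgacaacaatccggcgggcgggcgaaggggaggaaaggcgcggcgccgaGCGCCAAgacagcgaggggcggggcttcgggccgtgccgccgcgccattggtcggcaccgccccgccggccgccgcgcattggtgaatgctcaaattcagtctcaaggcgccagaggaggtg
E2f8 promoter, chr7:48881567-48881846 (- strand): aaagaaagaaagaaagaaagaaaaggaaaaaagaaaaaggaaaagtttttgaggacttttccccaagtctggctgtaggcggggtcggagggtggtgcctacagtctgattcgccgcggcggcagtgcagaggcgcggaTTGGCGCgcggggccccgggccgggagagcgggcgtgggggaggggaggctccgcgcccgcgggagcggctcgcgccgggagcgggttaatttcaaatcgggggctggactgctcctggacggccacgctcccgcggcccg
Rbl2 promoter, chr8:91069807-91070086 (+ strand): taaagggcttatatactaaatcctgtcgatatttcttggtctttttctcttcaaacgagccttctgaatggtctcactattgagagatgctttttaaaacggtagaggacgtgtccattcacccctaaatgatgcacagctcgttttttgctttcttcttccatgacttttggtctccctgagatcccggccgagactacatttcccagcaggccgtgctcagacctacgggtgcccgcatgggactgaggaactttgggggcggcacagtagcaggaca
A window reaching 50 bases past the start was found for 7 of the 10 members, with 9 windows in all, since E2f2 and E2f3 have 2 each; Rb1, E2f4 and E2f5 had none in the table. E2F-type letters lay in the windows of Rbl1 (at -17), E2f7 (3 matches, at -223, -198 and -92), E2f8 (at -111), E2f3 (2 matches at its first start, at -11 and 19) and E2f2 (at 41 of its first start). These positions give the first base of a match, counted from the transcript start. Of all 32851 promoter windows of this length, 9.57% held such letters. Rbl2, E2f1 and the second windows of E2f2 and E2f3 held none of them. The E2f1 window belongs to a RefSeq start inside the gene as GENCODE draws it, and does not cover the gene's outer end. CHR letters (TTTGAA or TTCGAA, either strand), the element through which MuvB proteins bind, were present in the windows of E2f8, E2f3, E2f2 and Rbl2 and in 19.2% of all windows. CCAAT letters, on either strand, were in those of E2f2, E2f3, E2f7 and E2f8 and in 37.4% of all windows; in E2f8 they overlap the E2F-type match. These matches describe letters and were not tested as binding sites.

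**Figure D1:**
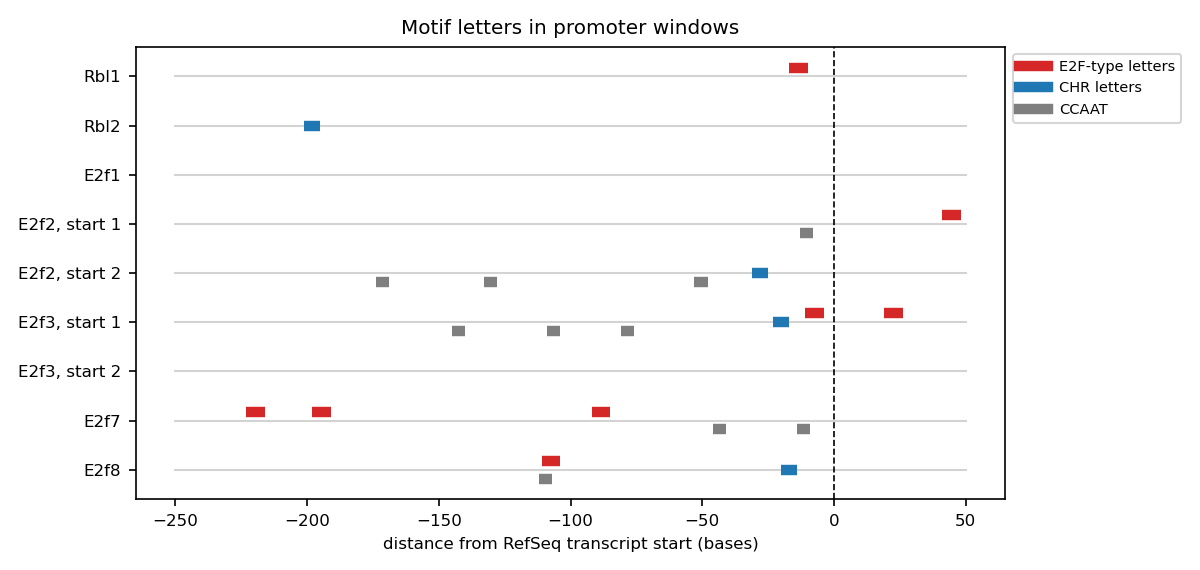
Positions of motif letters in the 9 RefSeq promoter windows of 7 members; the horizontal axis gives the distance in bases from the transcript start (dashed line) and each bar is a match on either strand. E2f7 holds 3 E2F-type matches, and the Rbl2 window holds none. The E2f1 window also holds none, but it belongs to a start inside the gene as GENCODE draws it.

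Among the pocket proteins, Rb1 rose in the treated cells at day 3. Rb1 (ENSMUSG00000022105, chr14:73183673-73325822, GRCm38) had levels of 12.5, 15.1 and 12.1 CPM in the MEFD3min samples and 36.3, 32.4 and 30.0 CPM in the MEFD3plu samples. The groups did not overlap, and the lowest treated sample lay above every sample of all other conditions. The log2 fold change was 1.31 (SE 0.128, adjusted p = 1.41e-07), or 2.48-fold; this and all later adjusted p-values are Benjamini-Hochberg values of a quasi-likelihood fit in edgeR. At day 5 the treated samples, at 18.7, 21.1 and 20.7 CPM, overlapped the untreated ones, at 15.2, 21.0 and 16.4 CPM, and the log2 difference of 0.21 (95% interval -0.04 to 0.45) did not pass the test (adjusted p = 0.191). Without MEFD5min replicate 3, the highest untreated sample, the value was 0.35 with an adjusted p of 0.0312. The day 3 effect exceeded the day 5 effect by 1.10 on the log2 scale (SE 0.179, adjusted p = 8.48e-05). In bulk RNA, fewer cells of a type and less RNA per cell cannot be told apart. Of Rb1's exon bases, 14.9% lie opposite exons of Lpar6 and Rcbtb2, and whether the counting used strand is not given in the sources used here; the labels name an unstranded TruSeq kit and the study's methods a stranded one. Lpar6 was at 10.4 CPM in MEFD3min and 17.2 CPM in MEFD3plu (log2 fold change 0.72, adjusted p = 0.00226), while Rcbtb2 fell from 67.1 to 49.4 CPM (-0.44, adjusted p = 0.00200); their part in the Rb1 values was not tested.

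Over time, Rb1 fell from 23.4, 19.5 and 20.4 CPM in MEFD0 to the MEFD3min level without treatment (log2 fold change -0.67, SE 0.128, adjusted p = 0.000243) and rose with it (0.64, SE 0.125, adjusted p = 0.000233). From MEFD3plu to MEFD5plu it fell again by 0.71 (SE 0.125, adjusted p = 0.000114), back to a level 0.06 below MEFD0 that did not pass the test (adjusted p = 0.679). Untreated cells gained 0.40 from day 3 to day 5 (adjusted p = 0.0191), a call that was lost without MEFD3min replicate 1 (0.36, adjusted p = 0.0713), MEFD3min replicate 4 (0.34, adjusted p = 0.0572) or MEFD5min replicate 3 (0.26, adjusted p = 0.121), and in a fit of only the compared samples (0.41, adjusted p = 0.0677). The order of levels was MEFD3plu, then MEFD0, MEFD5plu and MEFD5min, whose neighbours overlapped, then MEFD3min. MEFD5min stood 0.27 below MEFD0 and did not pass the test (adjusted p = 0.0946); without MEFD5min replicate 3 the value was -0.41 (adjusted p = 0.0126).

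Rbl1, which represses S phase genes with E2f4 and is itself an E2F target, followed the day of culture far more than the treatment. Rbl1 (ENSMUSG00000027641, chr2:157145893-157204534) was at 49.8, 50.9 and 51.5 CPM in MEFD0. At day 3 it was at 13.9, 16.1 and 15.4 CPM without treatment and at 15.4, 15.5 and 14.6 CPM with it. All 6 day 3 samples lay far below MEFD0, and the treated samples fell within the range of the untreated ones. The drop from MEFD0 was 3.36-fold in MEFD3min (log2 fold change -1.75, SE 0.0801, adjusted p = 8.16e-12) and 3.35-fold in MEFD3plu (-1.74, SE 0.0801, adjusted p = 4.34e-12); both comparisons share the MEFD0 samples. The treated to untreated difference at day 3 was 0.00316 on the log2 scale, with a 95% interval of -0.16 to 0.16.

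By day 5 Rbl1 had returned to 42.3, 42.1 and 37.8 CPM in untreated cells and to 30.8, 30.3 and 30.9 CPM in treated cells. Every treated sample was below every untreated one. Treated cells were lower by 1.33-fold (log2 fold change -0.41, SE 0.0772, adjusted p = 0.000314). The rise from day 3 to day 5 was 1.43 on the log2 scale in untreated cells (SE 0.0798, adjusted p = 3.99e-10) and 1.02 in treated cells (SE 0.0797, adjusted p = 1.17e-08). The treatment effect differed between the days by 0.41 (SE 0.112, adjusted p = 0.00579; 0.0638 when every gene with at least 1 count was kept). At day 5 both conditions were still below MEFD0, by 0.32 without treatment (adjusted p = 0.00262) and by 0.73 with it (adjusted p = 3.12e-07).

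Rbl2, the pocket protein of quiescent cells and part of DREAM, varied least in the list. Rbl2 (ENSMUSG00000031666, chr8:91070057-91123844) had condition means from 35.5 ± 1.39 CPM in MEFD5plu to 49.5 ± 1.23 CPM in MEFD3plu (SD, n = 3 each), a span of 1.39-fold. Its MEFD0 samples, at 47.5, 42.6 and 42.1 CPM, overlapped the MEFD3min samples, at 42.0, 45.0 and 43.1 CPM. The MEFD3plu samples, at 50.9, 48.9 and 48.6 CPM, lay above all other samples. The day 3 difference was small (log2 fold change 0.19, SE 0.0727, adjusted p = 0.0353) and not firm: the call was lost in a fit of only the compared samples (adjusted p = 0.123), with no filter on low counts (0.267) and in 5 of the 6 fits that each left out a compared sample, where adjusted p reached 0.116 without MEFD3min replicate 1; those without MEFD3min replicate 4 (0.0617) and MEFD3plu replicates 1, 3 and 4 (0.106, 0.0643 and 0.0523) lost it too. At day 5 the log2 difference was -0.15 (adjusted p = 0.105), and it passed the test under DESeq2 (-0.19, adjusted p = 0.0190), with DESeq2's size factors (-0.19, 0.0394) and under scaling by total counts (-0.31, 0.00365). The treatment effect differed between the days by 0.34, a call that was lost with no filter on low counts (0.32, adjusted p = 0.131). The fall from MEFD3plu to MEFD5plu was 0.48 (SE 0.0731, adjusted p = 2.59e-05). Exons of Aktip and Gm45464 lie opposite 21% of its exon bases.

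Set side by side per kilobase of exon, the pocket protein genes changed places. Rbl2 stood below Rbl1 in MEFD0, with a log2 ratio of -0.54 ± 0.12 (SD, n = 3), and above it at day 3, at 1.19 ± 0.06 in MEFD3min and 1.37 ± 0.04 in MEFD3plu. At day 5 the ratio was -0.38 ± 0.10 in MEFD5min and -0.12 ± 0.07 in MEFD5plu, again below 0 in every sample. The day 5 order depends on the exon lengths used, 7558 bases for Rbl2 and 5993 for Rbl1. In CPM Rbl2 was above Rbl1 in every MEFD5plu sample, at 33.9, 36.4 and 36.3 against 30.8, 30.3 and 30.9. In MEFD5min the CPM of the genes overlapped, at 38.4, 40.6 and 39.1 for Rbl2 against 42.3, 42.1 and 37.8 for Rbl1. Rbl1 supplied 47.6% of the summed CPM per kilobase of the 3 genes in MEFD0 and 17.4% in MEFD3plu. Rb1 held 19.5% to 25.4% of the sum in the means of 4 conditions and 37.5% ± 1.72 (SD, n = 3) in MEFD3plu. These shares are of transcript levels, and nothing is known here of the proteins or their phosphorylation.

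**Figure D2:**
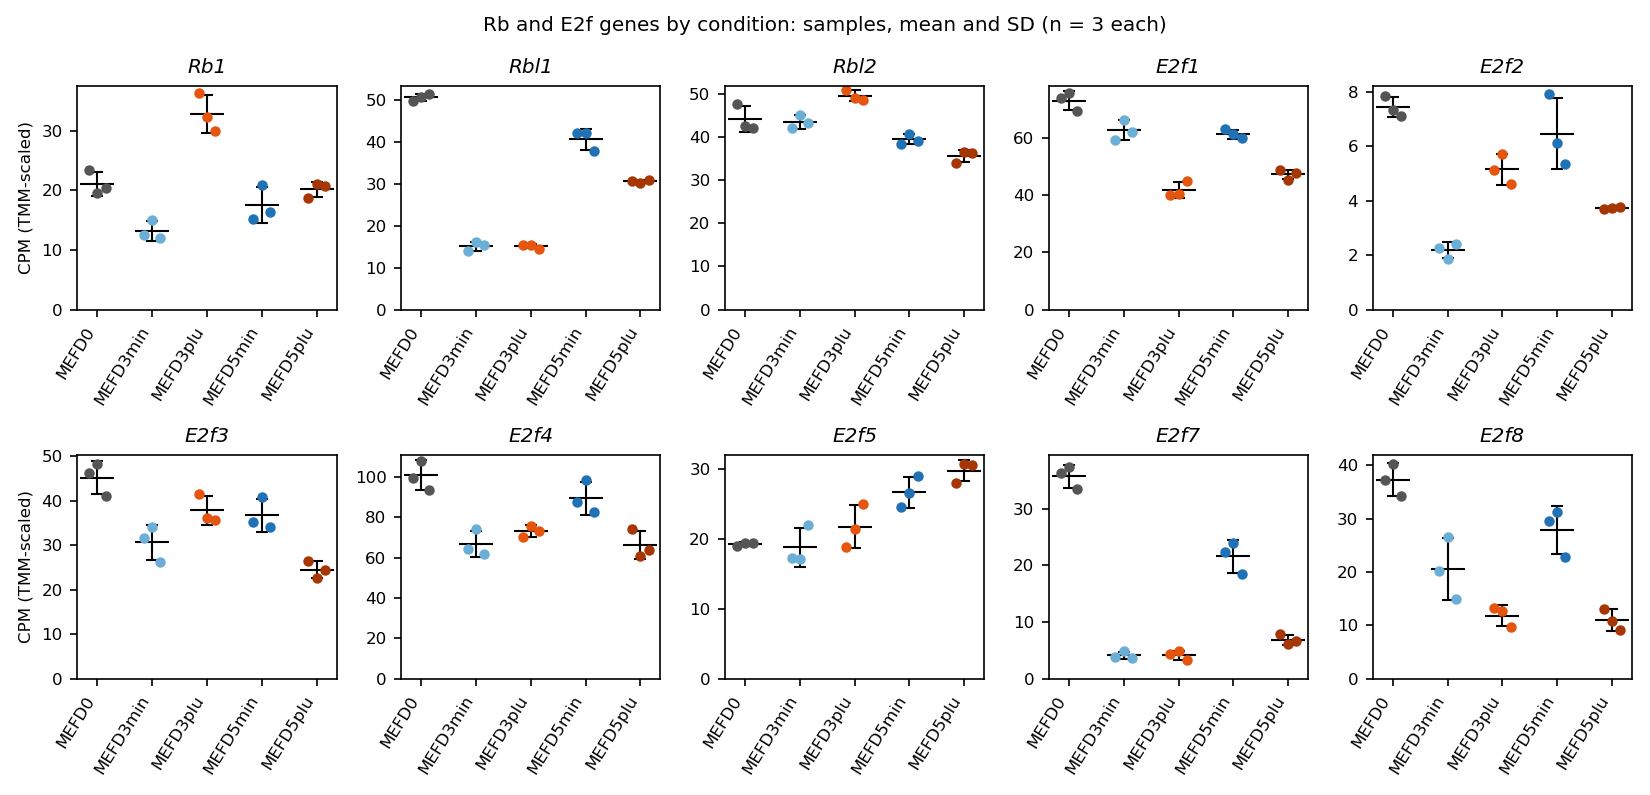
TMM-scaled CPM of the 10 members by condition, with each sample as a point and the mean and SD of 3 samples as a bar; each panel has its own axis from 0. Rb1 peaks in MEFD3plu at 32.9 CPM, Rbl1 and E2f7 drop at day 3 with or without treatment, and E2f5 is highest in MEFD5plu at 29.8 CPM.

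The 3 activators did not move together under treatment at day 3, while all 3 were lower in treated cells at day 5. E2f1, the best known inducer of S phase genes, was at 59.5, 66.5 and 62.2 CPM in MEFD3min and at 40.2, 40.3 and 44.9 CPM in MEFD3plu (ENSMUSG00000027490, chr2:154559407-154569892). Treated samples were below untreated ones without overlap (log2 fold change -0.59, SE 0.0743, adjusted p = 3.30e-06). At day 5 the same held at 48.7, 45.4 and 47.7 CPM against 63.1, 61.3 and 59.9 CPM (-0.38, SE 0.0741, adjusted p = 0.000449). The difference between the days, -0.21, did not pass the test (adjusted p = 0.110). From MEFD0, at 74.0, 76.0 and 69.7 CPM, E2f1 fell little without treatment, by 0.22 to MEFD3min (adjusted p = 0.0151) and by 0.25 to MEFD5min (adjusted p = 0.00926), and by 0.81 to MEFD3plu (adjusted p = 4.25e-08). The fall to MEFD3min no longer passed without MEFD0 replicate 3 (-0.20, adjusted p = 0.0611) or MEFD3min replicate 1 (-0.19, adjusted p = 0.0753), in a fit of only the compared samples (-0.23, adjusted p = 0.0539) or with no filter on low counts (-0.21, adjusted p = 0.130). Between the untreated samples of days 3 and 5 its log2 difference was -0.03 (95% interval -0.18 to 0.11).

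E2f2, an activator with a much lower level, went the other way at day 3. Its CPM were 2.26, 1.85 and 2.42 in MEFD3min and 5.12, 5.70 and 4.60 in MEFD3plu (ENSMUSG00000018983, chr4:136172394-136196057). Treated samples were all higher, by 2.36-fold (log2 fold change 1.24, SE 0.168, adjusted p = 6.95e-06). At day 5 the direction was the opposite, with 3.69, 3.71 and 3.77 CPM in treated against 7.90, 6.11 and 5.35 CPM in untreated cells (-0.79, SE 0.158, adjusted p = 0.000489). The difference between both effects was 2.04 on the log2 scale (SE 0.230, adjusted p = 1.89e-06), the largest in the list. The MEFD0 samples were at 7.85, 7.34 and 7.12 CPM, so the untreated cells fell 3.42-fold by day 3 and were within 0.20 of MEFD0 again at day 5 (log2 difference -0.20, 95% interval -0.50 to 0.09). From MEFD3plu to MEFD5plu E2f2 fell by 0.46 (adjusted p = 0.0180); without MEFD3plu replicate 3 the value was -0.38 and did not pass (adjusted p = 0.0807).

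E2f3 moved in the directions of E2f2 under treatment, by smaller amounts. It was at 31.5, 34.1 and 26.3 CPM in MEFD3min and at 41.6, 36.2 and 35.6 CPM in MEFD3plu (ENSMUSG00000016477, chr13:29906575-29986063). The day 3 groups did not overlap, and the log2 fold change was 0.30 (SE 0.110, adjusted p = 0.0265). That call was lost without MEFD3min replicate 4 (0.21, adjusted p = 0.120) or MEFD3plu replicate 1 (0.23, adjusted p = 0.126) and in a fit of only the compared samples (adjusted p = 0.0736). At day 5 treated cells were lower, at 26.4, 22.6 and 24.5 CPM against 35.1, 40.9 and 34.1 CPM (-0.58, SE 0.110, adjusted p = 0.000321). The effects of the days differed by 0.89 (SE 0.156, adjusted p = 0.000178). MEFD0 was highest, at 46.3, 48.3 and 41.0 CPM, and overlapped MEFD3plu.

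Among the repressors that work with pocket proteins, E2f4 had the highest level per kilobase of all E2f genes listed in every condition, from 27.0 CPM per kilobase in MEFD5plu to 41.0 in MEFD0. In CPM it was at 99.8, 108 and 93.5 in MEFD0, 64.1, 74.3 and 62.0 in MEFD3min and 70.4, 76.0 and 73.5 in MEFD3plu (ENSMUSG00000014859, chr8:105297663-105305370). Treated and untreated samples overlapped at day 3 (log2 difference 0.13, 95% interval -0.06 to 0.32, adjusted p = 0.258). At day 5 the treated samples were at 74.1, 60.9 and 64.0 CPM, all below the untreated ones at 87.7, 98.4 and 82.5 CPM (-0.43, SE 0.0967, adjusted p = 0.00135). The interaction was 0.56 (SE 0.137, adjusted p = 0.00261). Both day 3 conditions were below MEFD0, by 0.59 without treatment (adjusted p = 5.02e-05) and by 0.46 with it (adjusted p = 0.000516), comparisons that share the MEFD0 samples.

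E2f5, the other repressor of this kind, was higher at day 5 than at day 0 with or without treatment. It was at 19.0, 19.5 and 19.4 CPM in MEFD0, 24.6, 26.6 and 29.0 CPM in MEFD5min and 28.1, 30.7 and 30.6 CPM in MEFD5plu (ENSMUSG00000027552, chr3:14578641-14606309). All 6 day 5 samples were above the MEFD0 samples, with log2 fold changes of 0.47 without treatment (SE 0.114, adjusted p = 0.00284) and 0.63 with it (SE 0.114, adjusted p = 0.000125). It was the only member called higher in MEFD5min or MEFD5plu than in MEFD0. Treatment made no called difference at day 3 (0.21, 95% interval -0.01 to 0.44, adjusted p = 0.125) or at day 5 (0.16, 95% interval -0.06 to 0.38, adjusted p = 0.264). At day 3 it would have been called without MEFD3min replicate 4 (0.34, adjusted p = 0.0163) or without MEFD3plu replicate 1 (0.31, adjusted p = 0.0427). Its share of the summed E2f level per kilobase was 11.3% ± 0.672 in MEFD0 and 25.1% ± 2.38 in MEFD5plu (SD, n = 3 each), while E2f4 held 40.0% to 45.3% in the means of all 5 conditions.

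**Figure D3:**
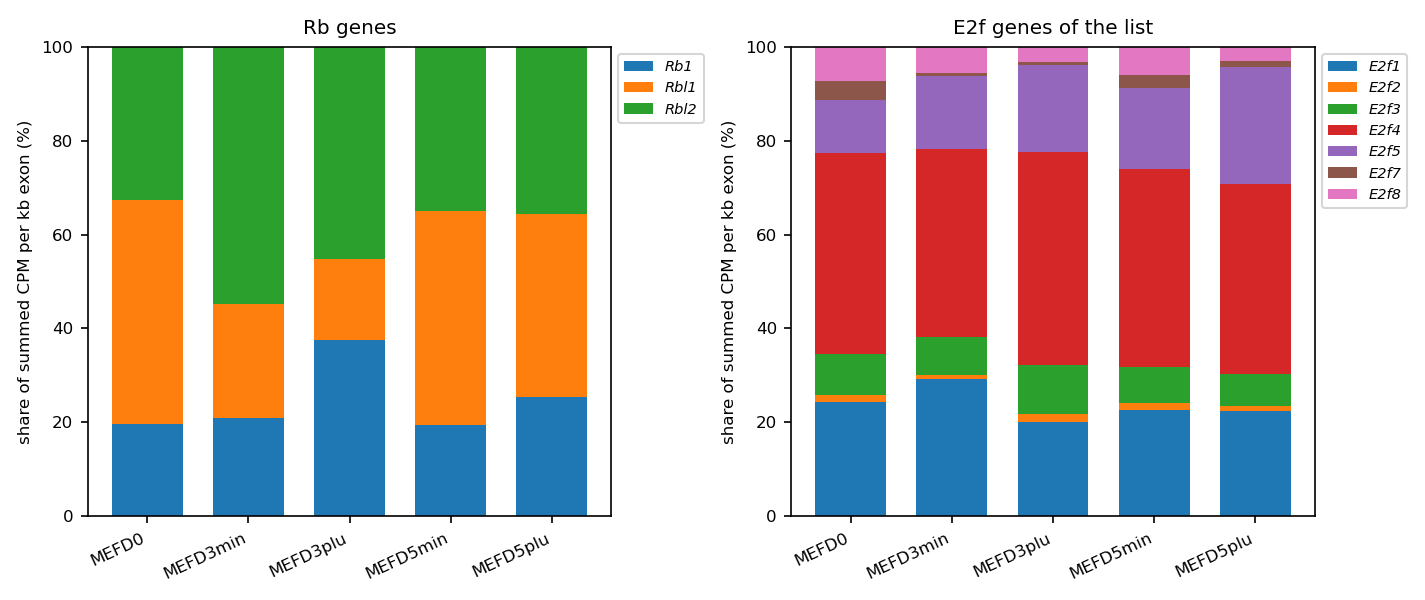
Mean share of each gene in the summed CPM per kilobase of exon (percent, 3 samples per condition), for the 3 Rb genes on the left and the 7 E2f genes of the list on the right. Rbl1 shrinks at day 3, Rb1 reaches 37.5% in MEFD3plu, E2f4 stays the largest E2f share and E2f5 grows to 25.1% in MEFD5plu.

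Of the atypical repressors, E2f7 had the widest span of any member. E2f7 (ENSMUSG00000020185, chr10:110745439-110787384), whose promoter with 3 E2F-type matches is printed above, was at 36.3, 37.4 and 33.4 CPM in MEFD0. At day 3 it was at 3.85, 4.86 and 3.56 CPM untreated and at 4.30, 4.83 and 3.30 CPM treated. The day 3 samples lay close together whatever the treatment and far below MEFD0. The fall was 8.69-fold in MEFD3min (log2 fold change -3.12, SE 0.156, adjusted p = 2.49e-11) and 8.64-fold in MEFD3plu (-3.11, SE 0.157, adjusted p = 1.37e-11), against the same MEFD0 samples. The treated to untreated difference at day 3 was 0.01, with a 95% interval of -0.32 to 0.33.

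At day 5 E2f7 was back at 22.4, 23.9 and 18.4 CPM in untreated cells, and only at 7.89, 6.09 and 6.57 CPM in treated cells. The groups did not overlap, with treated cells 3.14-fold lower (log2 fold change -1.65, SE 0.148, adjusted p = 1.10e-07). The rise from day 3 to day 5 was 2.39 on the log2 scale without treatment (SE 0.155, adjusted p = 2.40e-09) and 0.73 with it (SE 0.160, adjusted p = 0.000756). The treatment effect differed between the days by 1.66 (SE 0.222, adjusted p = 1.21e-05).

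E2f8, the partner of E2f7 in repressing S phase genes, was lower in treated cells on both days. At day 3 it was at 13.2, 12.7 and 9.61 CPM with treatment and at 20.1, 26.6 and 15 CPM without (ENSMUSG00000046179, chr7:48866429-48881596). At day 5 it was at 13.0, 10.9 and 9.05 CPM against 29.5, 31.3 and 22.8 CPM. There was no overlap on either day, and the log2 fold changes were -0.80 (SE 0.188, adjusted p = 0.00160) and -1.34 (SE 0.189, adjusted p = 1.81e-05). Replicate 4 was the lowest sample of E2f8 in all 5 conditions, MEFD0 included, where the values were 37.3, 40.3 and 34.2 CPM. The difference between the days, 0.54, did not pass the test (adjusted p = 0.106), but passed without MEFD3min replicate 3 (0.77, adjusted p = 0.0113), MEFD3plu replicate 4 (0.67, 0.0491) or MEFD5min replicate 4 (0.71, 0.0376), with no filter on low counts (0.52, 0.0145) and with scaling by total counts (0.72, 0.0495). With the replicate number as a block in the fit, that difference was 0.55 and passed too (adjusted p = 0.00873). In treated cells the log2 difference of E2f8 from day 3 to day 5 was -0.10 (95% interval -0.48 to 0.27) and that of E2f7 was 0.73; the difference between the genes was not tested. Exons of Gm2788 lie opposite 11.2% of E2f8's exon bases, and Gm2788 was at 0.0300 CPM or less in the mean of every condition.

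Counted over the list, 4 members were called higher and 2 lower in MEFD3plu than in MEFD3min, where 56.1% of all 15997 genes tested were called, 28.0% higher and 28.0% lower; the number called is thus near that of genes at large. At day 5, 7 members were lower in treated cells and none higher, where 50.5% of all genes were called, 24.2% lower and 26.3% higher. The median log2 fold change of the members was 0.16 at day 3 and -0.42 at day 5, and that of all genes was 0.00 and 0.01. For the difference between the days, 7 members were called with the day 3 effect the higher and none the other way, where 48.5% of all genes were called, 22.6% and 25.8% in these directions. Scaling by total counts moved the median of all genes at day 5 by -0.16 and that of the interaction by 0.18, and lowered the share of called genes that were higher at day 5 from 52.1% to 37%; it moved that share from 46.7% to 59.5% for the interaction. The 7 members called lower at day 5 stayed called under that scaling.

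**Figure D4:**
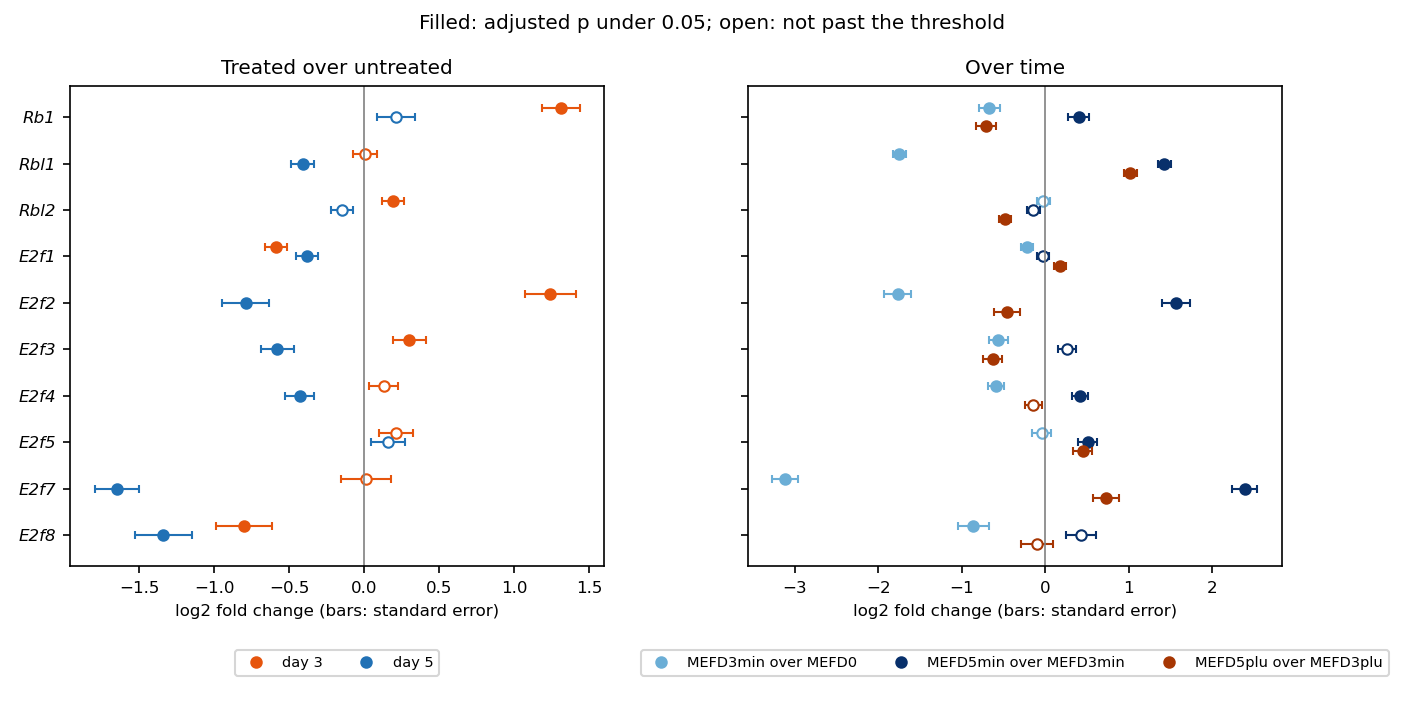
Log2 fold changes of the 10 members with standard errors, treated over untreated at days 3 and 5 on the left and over time on the right; filled points have an adjusted p under 0.05. E2f2 and E2f3 lie above 0 at day 3 and below 0 at day 5, and E2f7 reaches -3.12 from MEFD0 to MEFD3min.

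Over time without treatment, 8 members were lower in MEFD3min than in MEFD0 and none higher, where 60.0% of all genes were called, 28.6% lower and 31.4% higher. From MEFD3min to MEFD5min, 6 members rose and none fell, where 42.8% of all genes were called, 21.3% higher and 21.5% lower; with scaling by total counts the share of called genes that were higher went from 49.7% to 62.7%. The members that rose were E2f7, E2f2, Rbl1, E2f5, E2f4 and Rb1, with log2 fold changes of 2.39, 1.57, 1.43, 0.51, 0.42 and 0.40. E2f3 (0.26, adjusted p = 0.0663) and E2f8 (0.43, adjusted p = 0.0655) missed the threshold, and both passed it without MEFD3min replicate 3 (0.34, adjusted p = 0.0239, and 0.66, adjusted p = 0.00517); E2f8 also passed without MEFD5min replicate 4 (0.56, adjusted p = 0.0292) and with no filter on low counts (0.39, 0.00671). With total counts both passed, E2f3 at 0.36 (adjusted p = 0.0292) and E2f8 at 0.53 (0.0413). Both also passed with the replicate number as a block, E2f3 at 0.26 (adjusted p = 0.0297) and E2f8 at 0.45 (0.00291). MEFD5min was still lower than MEFD0 for Rbl1, E2f1, E2f3 and E2f7 and higher for E2f5, where 46.4% of all genes were called, 21.9% lower and 24.5% higher. The E2f3 call (-0.30, adjusted p = 0.0318) was lost without MEFD0 replicate 1 (-0.29, 0.0849), MEFD0 replicate 3 (-0.25, 0.121), MEFD5min replicate 1 (-0.27, 0.104) or MEFD5min replicate 4 (-0.28, 0.0864). E2f8 missed the threshold in that comparison (-0.42, adjusted p = 0.0654) and passed it under DESeq2 (-0.44, 0.0483), in a fit of only the compared samples (-0.40, 0.0124), with no filter (-0.45, 0.00116) and with the replicate number as a block (-0.43, 0.00309). Rbl2 passed under DESeq2 (-0.18, 0.0290).

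In treated cells, 7 members were lower and Rb1 was higher in MEFD3plu than in MEFD0, where 63.5% of all genes were called, 29.7% lower and 33.9% higher. Of these, E2f3 (-0.26, adjusted p = 0.0472) lost its call without MEFD0 replicates 1 (-0.24, 0.109) or 3 (-0.21, 0.157) and without MEFD3plu replicates 3 (-0.23, 0.137) or 4 (-0.22, 0.143), with no filter (-0.26, 0.0536) and with at least 10 counts in every sample (-0.24, 0.0675). Rbl2, at 0.17 (adjusted p = 0.0538), would have been called without MEFD0 replicate 1 (0.22, adjusted p = 0.0246) or with at least 10 counts in every sample (0.19, adjusted p = 0.0253). In MEFD5plu, 8 members were lower than in MEFD0 and E2f5 was higher, where 65.0% of all genes were called, 29.8% lower and 35.2% higher; the higher share of these calls was 54.2%, and 43.7% with total counts. From MEFD3plu to MEFD5plu the list split evenly: Rbl1, E2f7, E2f5 and E2f1 were called higher and Rb1, E2f3, Rbl2 and E2f2 lower, where 63.0% of all genes were called, 33.8% higher and 29.2% lower. The E2f1 call there (0.18, adjusted p = 0.0463) did not hold in most other fits: it was lost under DESeq2 (0.14, adjusted p = 0.0986) and without MEFD3plu replicate 1 (0.15, 0.155) or 3 (0.15, 0.154) or MEFD5plu replicate 1 (0.16, 0.127) or 4 (0.17, 0.106).

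The genes around the family were described from lists of pathway partners. Of all genes tested, 28.0% were higher and 28.0% lower in treated cells at day 3, and 26.3% higher and 24.2% lower at day 5. The counts in the lists were not tested against those shares. E2F proteins other than the atypical ones need a dimer partner, and of the 2 partner genes Tfdp1 was called on both days in opposite directions, higher in treated cells at day 3 (144 ± 4.14 against 114 ± 3.45 CPM, SD, n = 3; log2 fold change 0.34, adjusted p = 0.000477) and lower at day 5 (143 ± 4.94 against 179.9 ± 11.4 CPM; -0.33, adjusted p = 0.000739). Tfdp2 was not called on either day (0.03 and -0.10). Of the 7 MuvB, B-Myb and Foxm1 genes, 2 were higher at day 3, the MuvB genes Lin52 (0.95, adjusted p = 7.96e-07) and Lin9 (0.45, adjusted p = 0.00206), and at day 5 Lin52 was higher (0.55, adjusted p = 0.000419) and 4 genes were lower. Mybl2, which encodes B-Myb, was 1.54 lower on the log2 scale at day 5 (adjusted p = 7.52e-07) and Foxm1, an activator of G2/M genes, 1.20 lower (adjusted p = 9.06e-07).

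Of the 8 G1 cyclin and kinase genes that act on pocket proteins, 3 were higher and 2 lower in treated cells at day 3, and none was higher and 4 were lower at day 5. The shares of all genes were 28.0% higher and 28.0% lower at day 3, and 26.3% and 24.2% at day 5. Cyclin E genes were higher in treated than in untreated cells at day 3. Ccne1 was at 17.9 ± 1.14 against 7.76 ± 1.17 CPM (SD, n = 3, log2 fold change 1.21, adjusted p = 1.04e-06) and Ccne2 at 0.80 (adjusted p = 0.000191). Against MEFD0, at 37.2 CPM for Ccne1 and 51.5 CPM for Ccne2, both were lower in MEFD3plu (-1.05 and -1.58, adjusted p = 1.92e-06 and 3.63e-08). Ccnd1, cyclin D1, was lower on both days (-1.07 and -0.61, adjusted p = 8.38e-10 and 1.95e-06). Ccne1 was lower at day 5 (-0.85, adjusted p = 5.26e-05), as was Cdk6 (-0.90, adjusted p = 2.88e-05). Of the 7 CDK inhibitor genes, Cdkn2b reached at most 12 counts and was not tested. Among the 6 tested, 3 were higher and 1 lower on each day. Cdkn1a (p21) was higher at day 3, at 140.4 ± 7.74 against 48.5 ± 0.910 CPM (SD, n = 3; 1.53, adjusted p = 6.49e-10), and lower at day 5 (-0.69, adjusted p = 1.79e-05). Cdkn2c (p18) was higher on both days (1.24 and 1.58, adjusted p = 1.14e-08 and 1.64e-09), and so was Cdkn1c (p57), at 0.43 and 2.18 (adjusted p = 0.0428 and 6.49e-08).

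The 34 G1/S target genes of E2F all fell from MEFD0 to MEFD3min, with a median log2 fold change of -2.00, and all 34 rose from MEFD3min to MEFD5min, with a median of 1.52, where the medians of all genes were 0.04 and -0.03. From MEFD3plu to MEFD5plu, 28 of them rose (median 0.91). Of all genes, 28.6% were lower from MEFD0 to MEFD3min, 21.3% higher from MEFD3min to MEFD5min and 33.8% higher from MEFD3plu to MEFD5plu. Under treatment 2 of the 34 were higher and 5 lower at day 3, with a median of -0.03. At day 5 none was higher and 29 were lower, with a median of -0.66. The shares of all genes were 28.0% higher and 28.0% lower at day 3, and 26.3% and 24.2% at day 5. The largest called changes of the list at day 3 were in Gins2 (-0.97), Mcm6 (-0.72) and Dut (-0.66). At day 5 they were in the licensing factor Cdt1 (-1.35), the chromatin assembly factor Chaf1a (-1.27) and the polymerase subunit Pole (-1.22). The 25 G2/M genes bound by DREAM or by B-Myb and Foxm1 were all called in each of these steps over time, 25 lower in MEFD3min than in MEFD0 (median -2.27), 25 higher in MEFD5min than in MEFD3min (1.91) and 25 higher in MEFD5plu than in MEFD3plu (1.65). In treated cells 10 of them were lower at day 3 (median -0.08), led by Kif23 (-0.77), Cenpe (-0.56) and Ect2 (-0.48), and 18 at day 5 (median -0.43), led by Aurkb (-1.16), Plk1 (-1.13) and Cdc20 (-0.89). The members' medians for the same steps were -0.63 from MEFD0 to MEFD3min, 0.42 from MEFD3min to MEFD5min and -0.12 from MEFD3plu to MEFD5plu. For the first of these steps the G1/S genes ranged from -2.80 to -0.35. Rbl1 (-1.75), E2f2 (-1.77), E2f8 (-0.86), Rb1 (-0.67), E2f4 (-0.59) and E2f3 (-0.56) lay within that range. E2f7 (-3.12) lay below it, and E2f1 (-0.22), Rbl2 (-0.02) and E2f5 (-0.04) above it.

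Of the 8 genes for chromatin partners of the pocket, none was higher and 3 were lower in treated cells at day 3: Suv39h1 (-0.45), Arid4a (-0.42) and Hdac1 (-0.22). At day 5 Kdm5a (0.35) and Hdac1 (0.31) were higher and the methyltransferase gene Suv39h1 was lower (-1.05, adjusted p = 5.17e-08). Of all genes, 28.0% were higher and 28.0% lower at day 3, and 26.3% and 24.2% at day 5.

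**Figure D5:**
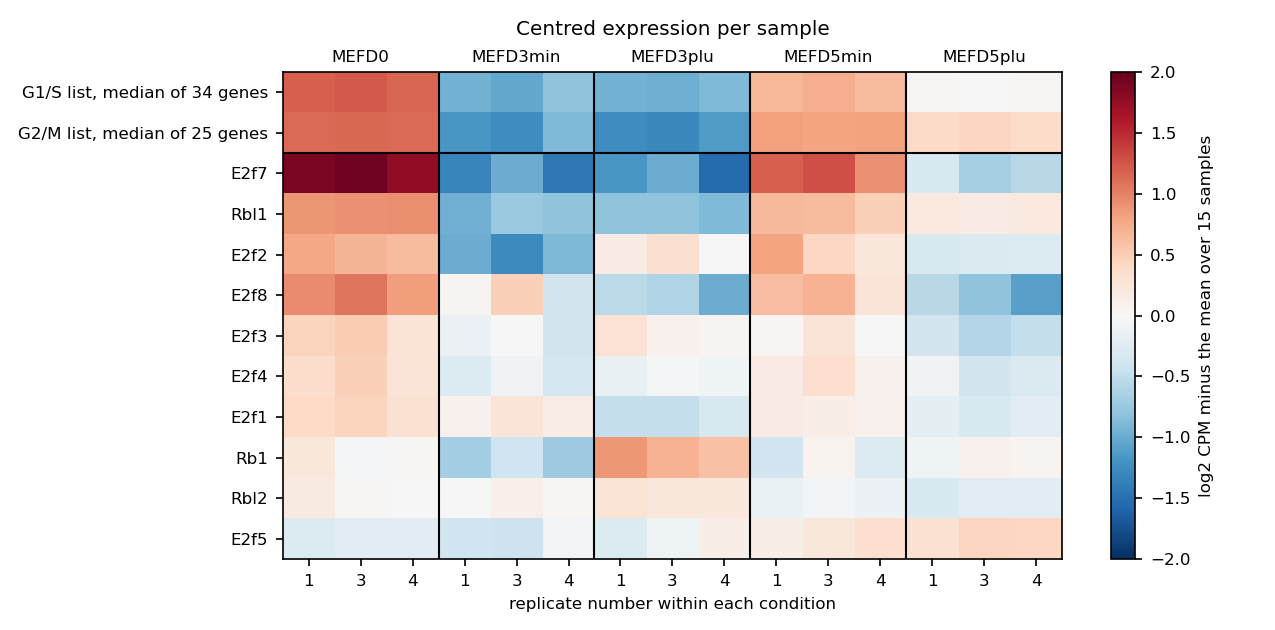
Log2 CPM minus the mean over the 15 samples, for the medians of the G1/S and G2/M lists (top) and the 10 members; columns are the replicates 1, 3 and 4 of each condition. E2f7 and Rbl1 share the lists' low columns at day 3, Rb1 is high in MEFD3plu and E2f5 in the day 5 columns.

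The genes most like each member were sought among 9620 protein-coding genes by the root mean square difference of centred log2 CPM over the 15 samples, as a description. For Rbl1 the nearest were Dtl (0.110), a subunit of an S phase ubiquitin ligase, and Haus4 (0.123), an augmin subunit of the mitotic spindle. For E2f7 they were Mybl2 (0.243) and Cit (0.256), a kinase of cytokinesis, beside E2f7's own root mean square of 1.29 around its mean. For Rb1 they were Lonp1 (0.142), a mitochondrial protease, and Alg3 (0.151), a mannosyltransferase. For E2f2 they were Ctps (0.206), which makes CTP, and Nolc1 (0.210), a nucleolar protein. E2f1 was nearest to Snx9 (0.0581) and Gnb1 (0.0682), E2f8 to Rps6ka2 (0.113) and Ptpn21 (0.150), and E2f3 to Morc2a (0.0773) and Snrnp200 (0.0803). E2f4 was nearest to Htra2 (0.0766) and Fbxl14 (0.0805), E2f5 to M6pr (0.0963) and Clcc1 (0.0978), and Rbl2 to Rc3h1 (0.0589) and Ankle2 (0.0610). Within the family, the nearest pair was E2f3 and E2f4 (0.178), and the member nearest to E2f7 was Rbl1 (0.653).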

How the data were processed

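RNA-Seq was done on 15 MEF samples, 3 per condition. The authors aligned 100 bp paired reads to GRCm38 and deposited raw counts of reads per Ensembl gene. Their processing notes name TopHat2 2.1.0, HTSeq and DESeq2; the annotation release and the strand setting are not given in the sources used here. Identifiers were matched to GENCODE M21 (46091 had a name), the source of coordinates and exon lengths. In R 4.3.3, edgeR 4.0.16 kept 15997 genes (filterByExpr) and scaled by TMM; 1 quasi-likelihood fit of all 15 samples without covariates gave 9 comparisons, with Benjamini-Hochberg adjustment over all genes and calls at 0.05. Intervals of differences are normal 95% intervals from the standard errors of that fit, so they are somewhat narrower than its p-values imply. Total counts were 24030558 to 37281126 per sample, and replicates differed by more than sampling noise.

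The members were named as a gene family, with no threshold on values, but they, the pathway and marker lists and the tests were chosen with earlier results of these data known. Per pathway list and day, the 3 called genes of largest change were named, with log2 CPM averaging 3 or more, and per member the nearest 2 genes. Alternatives were DESeq2 1.42.0, a fit of only the compared samples, DESeq2's size factors, total counts, no filter, at least 10 counts in every sample, each sample left out, and the replicate number as a block. Every condition carries the numbers 1, 3 and 4 in the labels, which do not say what they share. Deviations of same-numbered samples correlated at 0.143 to 0.36 between MEFD3min and MEFD3plu, so the numbers may pair the samples there. No other pair of conditions exceeded 0.1 in all 3. The main fit did not use the numbers. With them as a block, 6 members were called at day 3, as in the main fit. The steps were tested on simulated data.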

Additional observations from a re-analysis of the deposited data

Results flagged for a closer look

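The treatment effect differed between the days for 7 members by the treatment by day interaction of the edgeR fit (adjusted p under 0.05), in each case with the day 3 effect higher than the day 5 effect. On the log2 scale the difference was 2.04 for E2f2 and 0.89 for E2f3, both higher in treated than in untreated cells at day 3 and lower at day 5. It was 1.10 for Rb1, which was called at day 3 alone, and 0.34 for Rbl2, with 0.19 at day 3 and -0.15 at day 5; the Rbl2 call was lost with no filter on low counts (0.32, adjusted p = 0.131). It was 1.66 for E2f7, 0.56 for E2f4 and 0.41 for Rbl1, which were called lower at day 5 and not called at day 3. The Rbl1 call was also lost with no filter on low counts (0.39, adjusted p = 0.0638). The day 3 call of E2f3 was lost without MEFD3min replicate 4 (0.21, adjusted p = 0.120) or MEFD3plu replicate 1 (0.23, adjusted p = 0.126). It was lost too in a fit of only the compared samples (0.29, adjusted p = 0.0736). Over all genes, 48.5% had a called interaction.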

How the results depend on the processing

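The number of members called stayed within 1.5 times the main number under every alternative: 4 to 6 at day 3, 7 to 8 at day 5, 6 to 8 for the interaction, and 5 to 9 in the comparisons over time, except 4 to 6 for MEFD5min against MEFD0 when a sample was left out. Counts over all genes did too, at day 3 8157 to 9283 and at day 5 6818 to 7692 with a sample left out. Directions turned only for differences that were not called. At day 3, Rbl1 was at -0.01 under DESeq2, with only the compared samples, with DESeq2's size factors and without a filter, at -0.000361 with at least 10 counts in every sample, and between -0.05 and 0.05 with each sample left out; E2f7 was at -0.01 without a filter and between -0.12 and 0.15 with each sample left out. At day 5, E2f5 was at -0.01 with total counts. With each sample left out, the interaction of E2f5 lay between -0.05 and 0.18. From MEFD0 to MEFD3min, Rbl2 was at 0.00450 with at least 10 counts and between -0.06 and 0.03 with each sample left out, and E2f5 between -0.16 and 0.02. From MEFD3min to MEFD5min, E2f1 was at 0.07 with total counts and between -0.07 and 0.01 with each sample left out. Rb1 from MEFD0 to MEFD5plu lay between -0.12 and 0.02, and E2f8 from MEFD3plu to MEFD5plu between -0.24 and 0.02. The cause was not tested.

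With the replicate number as a block, 6 members were called at day 3, 7 at day 5, 8 for the interaction, and 8, 6, 8, 8, 9 and 7 in the comparisons over time. It added E2f8 to the calls of the interaction (0.55, adjusted p = 0.00873), of MEFD5min against MEFD0 (-0.43, 0.00309) and, with E2f3 (0.26, 0.0297), of MEFD5min against MEFD3min (0.45, 0.00291), and ended that of E2f1 from MEFD3plu to MEFD5plu (0.18, 0.0505). It changed no other member's call. E2f8 had the largest standard error of the members at day 3 (0.188), at day 5 (0.189) and for the interaction (0.265), so small differences of that gene were the least detectable there.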
